A study of Mus musculus with 69 samples.

Results

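The Sprouty and Spred genes are a family of 7 members by symbol, Spry1, Spry2, Spry3, Spry4, Spred1, Spred2 and Spred3, and 6 of them were found among the 24411 genes of the count table. Spry3 was not analysed here. The members were chosen by gene symbol and not by any measured value, and all 6 had at least 34 counts in each of the 69 libraries.

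RNA was sequenced from mouse kidneys after 4-thiouracil (4-TU) tagging, in which a kidney cell that carries uracil phosphoribosyltransferase (Uprt) incorporates the injected base into new RNA, and the tagged RNA is then biotinylated and pulled down. The mice were Hoxb7Cre;UPRTf/+ (34 libraries), in which Cre is active in collecting duct cells, or Atp6b1v1Cre;UPRTf/+ (35 libraries), the labels' spelling of a driver active in intercalated cells and in collecting duct cells with features of both main types. So every mouse carried 1 Uprt allele behind a floxed stop, and the pulldown libraries hold RNA tagged over the 4 hours after 430 mg/kg of 4-TU, each from 1 kidney. The Hoxb7Cre pulldowns comprised 10 control, 7 iAKI and 7 vAKI libraries, the Atp6b1v1Cre pulldowns comprised 11 control, 6 iAKI and 7 vAKI libraries, and 21 libraries were total kidney RNA of control mice given the same 4-TU, sequenced without a pulldown. iAKI was ischemic injury, with both renal pedicles clamped for 10 minutes and RNA tagged 24 hours later, and vAKI was volume depletion by withholding water and food for 72 hours. The injured mice were 5.5 months old, as were most controls. The other control mice, 2 female Hoxb7Cre and 3 male Atp6b1v1Cre, were 3 months old. The study asked which genes of single nephron segments respond to each of these stimuli, both of which raise serum creatinine.

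Sprouty proteins are brakes on receptor tyrosine kinases: fibroblast, epidermal and glial-derived growth factors activate Ras and the ERK kinases, ERK raises Sprouty transcription, and the Sprouty protein then limits the signal that induced it. Spred proteins share the Sprouty domain and bring neurofibromin, the protein that switches Ras off, to the membrane. In the developing kidney Spry1 restrains Gdnf and Ret signaling in the ureteric bud, from which the collecting duct derives, and its loss gives extra buds.

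Library totals ran from 12618062 to 30305464 counts (median 20868430). Levels are given as CPM (a library's counts scaled to a common total) after TMM scaling over all 69 libraries, and differences as log2 fold changes with a standard error (SE). The SE was derived from the test named next, as the absolute log2 fold change over the square root of its F statistic. A member is said to have risen or fallen where its adjusted p is under 0.05 (edgeR, quasi-likelihood F-test, p-values adjusted by Benjamini and Hochberg's method over 21175 genes). The injury comparisons rest on the 22 male pulldown libraries of 5.5 months unless females are named. The library numbers in the labels fall into 3 runs, here called series A, B and C, and all treated Hoxb7Cre libraries of both sexes belong to series A, with 2 of the 4 male and 1 of the 4 female Hoxb7Cre controls of that age. What a series marks is not given in the sources used here, so the members' responses to injury are also given within series.

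In GENCODE vM21 models (GRCm38), Spry1 lies on chromosome 3 from 37639947 to 37644598 (plus strand), Spry2 on chromosome 14 from 105891947 to 105896819 (minus), Spred1 on chromosome 2 from 117121374 to 117182279 (plus), Spred2 on chromosome 11 from 19924375 to 20024026 (plus) and Spred3 on chromosome 7 from 29158829 to 29170411 (minus). The counts cover exons, and the exons of Spry1 and Spred3 overlap those of a gene on the other strand, Gm42922 and Ggn. HTSeq's default setting was stated for the counting, while whether the kit kept strand was not, so reads from those overlaps cannot be assigned with certainty.

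Spry1, Spry2 and Spred2 moved together with volume depletion in the collecting duct pulldowns, as described later, so the 150 bases just before their RefSeq start sites (GRCm38.p6) are shown. They are chr3:37639797-37639946 on the plus strand for Spry1, chr14:105896820-105896969 on the minus strand for Spry2 and chr11:19924292-19924441 on the plus strand for Spred2, written 5′ to 3′ on the gene's strand. Capitals mark the only match to a searched motif.
Spry1: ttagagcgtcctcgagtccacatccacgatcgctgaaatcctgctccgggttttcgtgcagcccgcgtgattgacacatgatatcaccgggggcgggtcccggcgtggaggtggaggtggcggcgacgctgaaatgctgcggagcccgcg
Spry2: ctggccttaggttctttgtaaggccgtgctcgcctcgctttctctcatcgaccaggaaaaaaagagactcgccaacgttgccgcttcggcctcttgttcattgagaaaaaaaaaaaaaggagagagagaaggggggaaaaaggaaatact
Spred2: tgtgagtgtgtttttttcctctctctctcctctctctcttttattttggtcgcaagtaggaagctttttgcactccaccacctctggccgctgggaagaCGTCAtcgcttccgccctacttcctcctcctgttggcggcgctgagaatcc

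Windows from 250 bases before to 50 bases after the start were searched on both strands in the 5 members whose promoters were used here. The search covered TGACGTCA and its core TGACG, the element bound by CREB, CCGGAAGT for ETS factors, TGANTCA for AP-1, GTAAACA for FOXO, AGAACA for the glucocorticoid receptor and the CArG box bound by SRF. The Spred2 window alone held a match, 1 core TGACG read on the minus strand as CGTCA, and the core overlaps the longer CREB element by definition. Of all 32851 promoter windows of this length, 20.8% held the core, 1.79% the longer element, 3.89% the ETS motif, 7.81% the AP-1 motif, 3.65% the FOXO motif, 19% the glucocorticoid receptor motif and 1.63% a CArG box. A window without these letters says nothing about binding elsewhere at the gene.

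In uninjured kidneys the Spreds and Spry2, but not Spry1 or Spry4, were higher in tagged collecting duct RNA than in total kidney RNA. The pulldowns hold RNA tagged over 4 hours, while total RNA holds all RNA present. Cell type and RNA turnover therefore cannot be told apart in this difference. Levels per kilobase of exon allow for gene length, but a pulldown of tagged RNA may favor transcripts rich in uracil, so the order of genes is less certain in the pulldowns than in total RNA. On this scale total RNA held Spry1 at 11.2 ± 1.88 CPM per kb (SD, n = 21), Spred1 at 10.2 ± 1.17, Spry2 at 9.49 ± 1.32, Spred2 at 7.78 ± 1.63, Spry4 at 4.23 ± 1.02 and Spred3 at 0.552 ± 0.138. The first 4 of these lie within the spread of their neighbours, while Spry4 and Spred3 are lower. In the Hoxb7Cre pulldown the order began with Spred1 at 20.0 ± 2.53 CPM per kb (n = 10), then Spry2 at 16.0 ± 5.91, Spred2 at 12.1 ± 1.64, Spry1 at 10.1 ± 3.55, Spry4 at 3.60 ± 2.54 and Spred3 at 0.927 ± 0.152. In the Atp6b1v1Cre pulldown Spred1 again led with 23 ± 2.49 CPM per kb (n = 11), and the others were at 13.7 ± 4.48 for Spry2, 13.1 ± 1.88 for Spred2, 11.0 ± 4.47 for Spry1, 4.19 ± 2.61 for Spry4 and 0.863 ± 0.128 for Spred3. Neighbouring ranks of Spry2, Spred2 and Spry1 overlap within their SDs in both pulldowns.

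**Figure D1:**
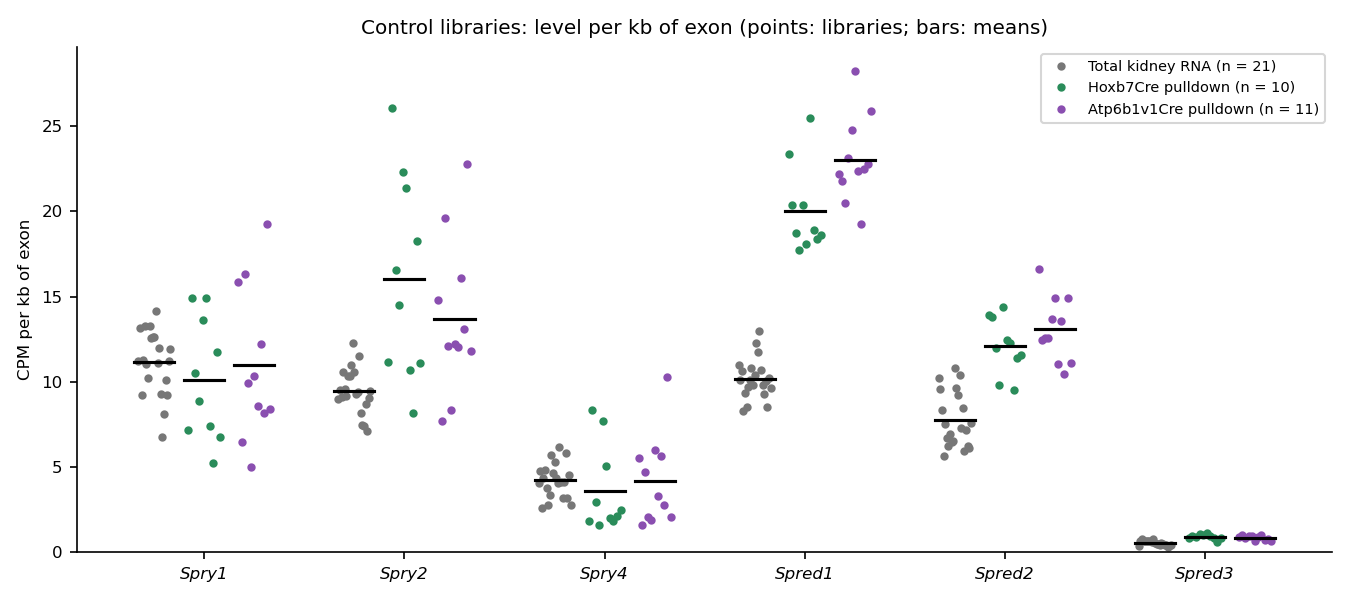
Level of each Sprouty and Spred gene in the 42 control libraries, in CPM per kb of exon. Points are libraries, colored by RNA pool, and bars are group means. Spred1 stands at a mean of 10.2 in total RNA and at 20.0 and 23 in the pulldowns, while the pulldown points of Spry4 scatter on both sides of the total.

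Against total RNA, with sex as a covariate, Spred1 rose by 1.03 on the log2 scale in the Hoxb7Cre pulldown (SE 0.06, adjusted p = 7.26e-20) and by 1.21 in the Atp6b1v1Cre pulldown (SE 0.06, adjusted p = 5.03e-23). Spred1 is the neurofibromin partner whose loss in humans causes Legius syndrome, and its levels in either pulldown lay above all of total RNA, as did 10.4% and 9.22% of genes. Spred3 (log2 differences of 0.76 and 0.75), Spry2 (0.75 and 0.61) and Spred2 (0.68 and 0.80) rose as well in both pulldowns. Spry1 differed from total RNA by -0.15 and 0.05 and Spry4 by -0.21 and 0.05, none past the test. So 4 of 6 members were higher in each pulldown, where 35.6% of all genes tested were higher in Hoxb7Cre and 34.4% in Atp6b1v1Cre RNA. The median difference of the members was 0.72 and 0.68, and that of all genes 0.11 in both. Markers checked the pools: all 6 principal cell markers were higher than total RNA in the Hoxb7Cre pulldown and all 6 endothelial markers lower in both pulldowns. The 6 intercalated cell markers summed to 534 to 1260 CPM in Atp6b1v1Cre controls and 303 to 551 CPM in total RNA. Proximal tubule RNA remained in both pools. Its 6 markers summed to 1574 to 4184 CPM in Hoxb7Cre and 1296 to 4135 CPM in Atp6b1v1Cre controls. In total RNA they summed to 7699 to 15468 CPM. Macrophage markers C1qa (2.61), Cx3cr1 (2.10), Adgre1 (1.63) and Csf1r (0.64) were higher in Atp6b1v1Cre than in Hoxb7Cre controls. Cd68 and Itgam did not pass. Stroma and pericyte markers Pdgfra (1.21), Pdgfrb (1.14), Col3a1 (0.93) and Acta2 (0.90) were higher there as well, while Col1a1 and Dcn did not pass. Of the endothelial markers only Emcn was higher (0.34).

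No member differed between the 2 control pulldowns (9.93% of genes did in either direction). Spred1 was nearest, 0.19 higher in Atp6b1v1Cre RNA (SE 0.07, unadjusted p = 0.0130 and adjusted p = 0.1 by edgeR), and DESeq2 also called 0 members. In males alone Spry4 was higher by 1.10 in the Atp6b1v1Cre controls. These include the 3 mice of 3 months, all of series C. The male Hoxb7Cre controls were all 5.5 months old and of series A or B, so driver, age and series are mixed here. Females and males differed at rest in Spred3 only, which was 0.37 higher in females (SE 0.08, adjusted p = 0.000305), beside 13.8% of genes that were higher in females. This test took all 42 control libraries as independent. Pulldown and total libraries may come from the same mice, so its SE and adjusted p may be too small. With series as a covariate the counts of members past the test in these control comparisons were the same. Total RNA held Spred3 at 2.81 ± 0.425 CPM in 11 males and 4.11 ± 0.673 CPM in 10 females.

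Volume depletion was the stimulus under which the family rose most widely. In male Hoxb7Cre pulldowns 5 of 6 members rose and none fell (17.9% of all genes rose), and 3 of them, the Sproutys, rose by at least 1 on the log2 scale as well (9.61%), with a median log2 fold change of 1.04 against 0 for all genes. Spry4, an inhibitor of Ras activation downstream of growth factor receptors, was at 9.61, 8.72, 10.3 and 12.0 CPM in the 4 controls and at 100.7, 102.5 and 113.3 CPM in the 3 vAKI libraries. The vAKI libraries lay close together, far above every control. The fold was 10.4 (log2 fold change 3.38, SE 0.29, adjusted p = 5.04e-08).

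Spry1, the Gdnf and Ret brake, was at 21.6, 15.3, 34.1 and 19.7 CPM in controls and at 55.3, 64.0 and 74.1 CPM after vAKI, with no overlap (log2 fold change 1.51, SE 0.33, adjusted p = 9.62e-04). Spry2, which binds the ubiquitin ligase Cbl, was at 22.4, 17.1, 38.1 and 23.2 CPM in controls and at 60.9, 60.0 and 55.2 CPM after vAKI (log2 fold change 1.23, SE 0.28, adjusted p = 0.00150). The 38.1 CPM control, a series B library, was nearest to the vAKI group but below all of it. Spred2 went from 56.8, 43.9, 52.6 and 53.6 CPM to 105.8, 91.2 and 82.8 CPM, again without overlap (log2 fold change 0.85, SE 0.14, adjusted p = 7.95e-05).

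Spred1 rose least of the 5, by 0.46 (SE 0.14, adjusted p = 0.0122), and here the groups overlapped: the controls were at 173.0, 128.4, 124.6 and 126.4 CPM and the vAKI libraries at 210.6, 203.2 and 154.3 CPM. Without vAKI replicate 4 or 6 its call was lost (adjusted p up to 0.0711). Spred3, the member of lowest level, lay at 6.11 to 6.29 CPM after vAKI and 3.95 to 6.07 CPM in controls, and missed the test (0.28, SE 0.25, adjusted p = 0.426). Thus 5 of the 6 members, all but Spred1, had vAKI libraries above all controls, as did 19.7% of genes. Within series A the log2 fold changes were 3.54 for Spry4, 1.82 for Spry1, 1.58 for Spry2 and 0.90 for Spred2, all past the test, and 0.34 for Spred1, which was not.

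**Figure D2:**
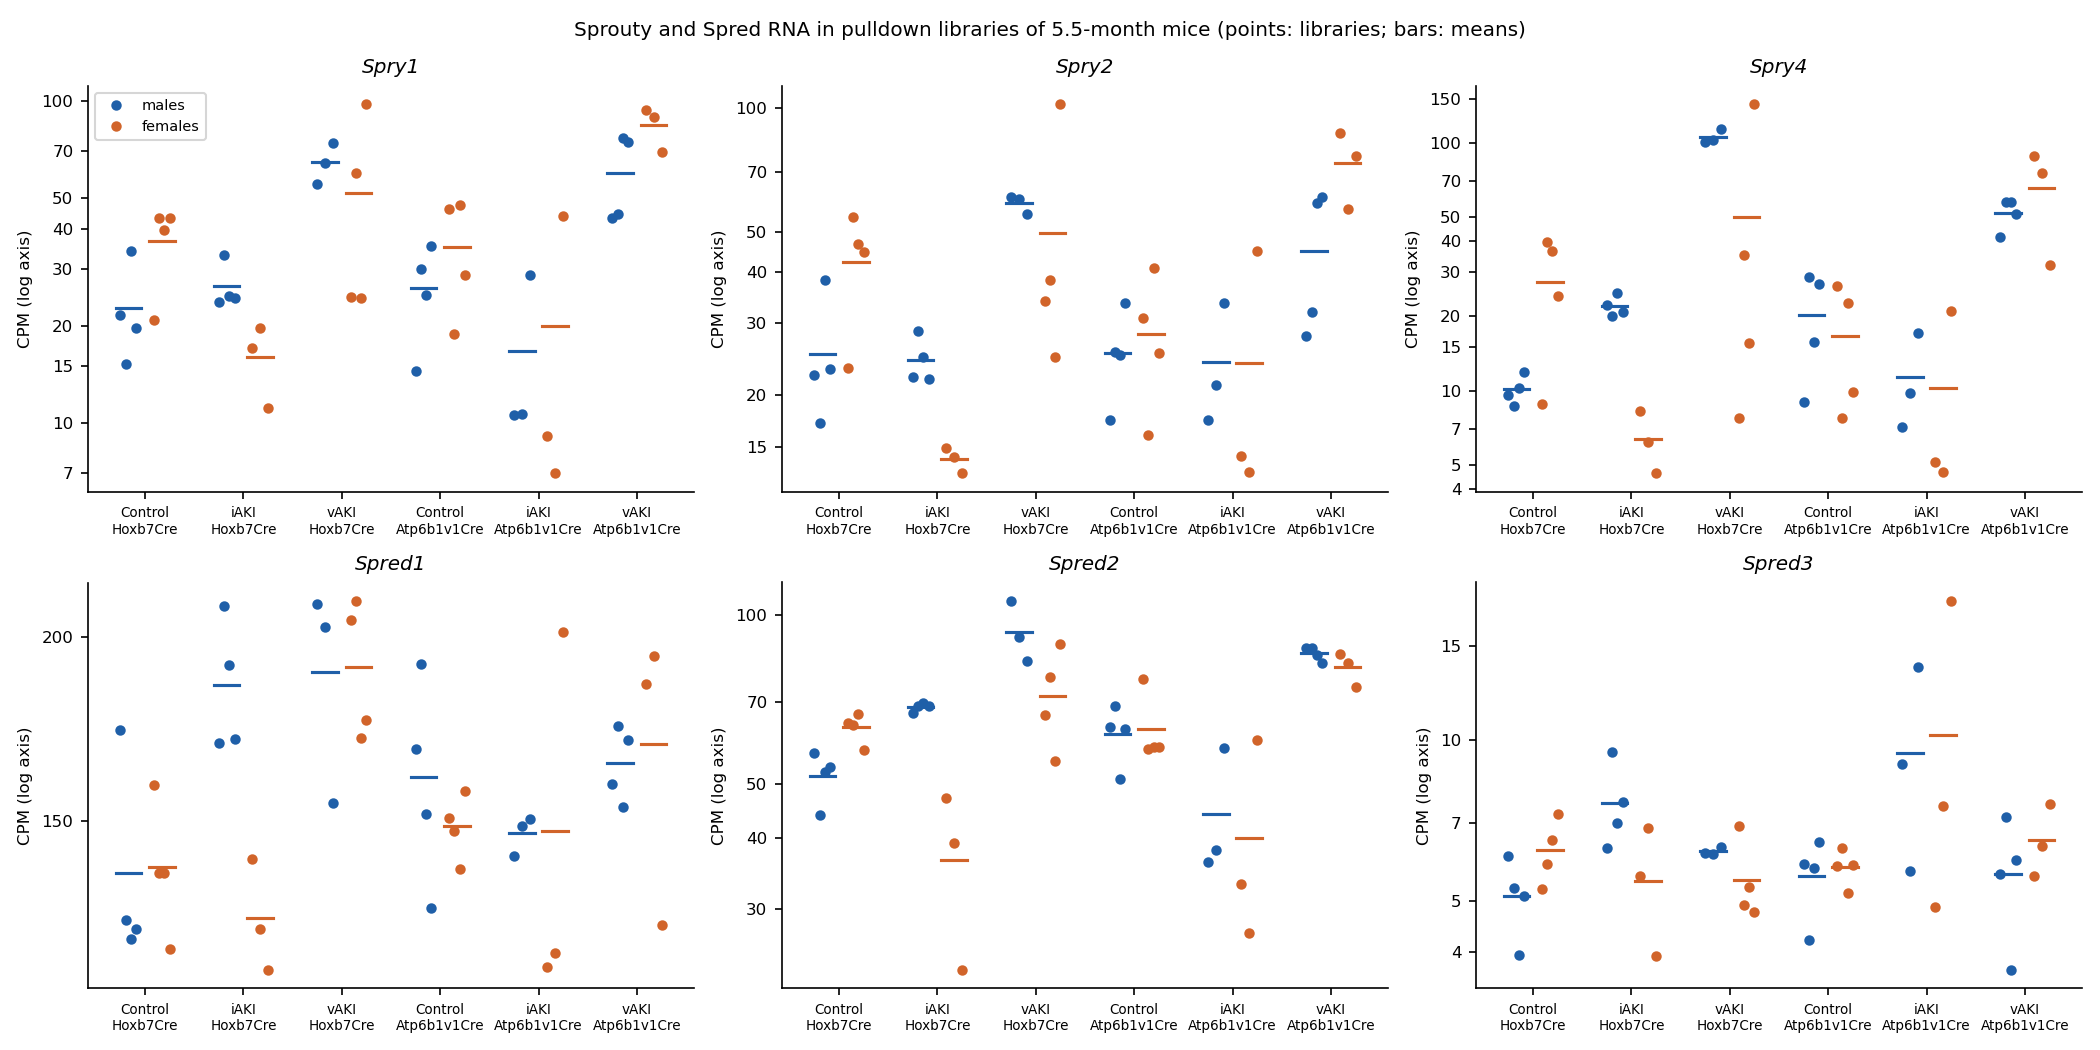
CPM of each member in the pulldown libraries of 5.5-month mice, 1 panel per gene on a log axis, by treatment and driver. Points are libraries (blue males, orange females) and bars are means. In males the vAKI points of Spry4 sit at 100.7 to 113.3 CPM in Hoxb7Cre RNA and 41.5 to 57.9 CPM in Atp6b1v1Cre RNA, above all control points of the same driver, and the female Hoxb7Cre points spread widely.

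In male Atp6b1v1Cre pulldowns the 3 Sproutys and Spred2 also rose with volume depletion, 4 of 6 members beside 8.11% of all genes, and Spry4 and Spry1 by at least 1 on the log2 scale (3.45%), with a median log2 fold change of 0.66. Spry4 was at 9.04, 28.7, 15.8 and 27 CPM in controls and at 41.5, 57.5, 57.9 and 51.7 CPM after vAKI, a log2 fold change of 1.39 (SE 0.26, adjusted p = 0.00152). Spry1 moved from 14.5, 30.1, 25 and 35.6 CPM to 43.5, 44.6, 76.9 and 74.8 CPM (1.20, SE 0.31, adjusted p = 0.0121). For both genes each vAKI library exceeded each control, although the controls were less uniform than in Hoxb7Cre RNA.

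Spry2 was at 17.4, 25.5, 25.1 and 33.6 CPM in controls and 27.9, 31.9, 58.6 and 60.8 CPM after vAKI, and the groups overlapped (0.83, SE 0.26, adjusted p = 0.0366). The 2 higher vAKI values are the series B libraries, and within series B its log2 fold change was 1.03, past the test, against 0.48 within series A, which was not. Spred2 lay at 51.0 to 68.8 CPM in controls and 82 to 87.3 CPM after vAKI (0.49, SE 0.13, adjusted p = 0.0168). Spred1 (0.05) and Spred3 (0.03) did not pass. The 3 members without overlap were Spry1, Spry4 and Spred2, where 7.05% of genes had vAKI above control. Spry4 and Spry1 passed within both series, at 1.40 and 0.99 in series A and 1.36 and 1.33 in series B, and Spred2 passed in B (0.56) but not in A (0.40). The call of Spry2 was the least stable, held in 3 of 8 fits that each left out 1 library and lost without Control replicate 6, 9 or 10 or vAKI replicate 6 or 7 (adjusted p up to 0.153). Leaving out Control replicate 6 also lost the call of Spry1 (adjusted p = 0.0522), and leaving out Control replicate 10 that of Spred2 (adjusted p = 0.0689).

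Ischemia moved fewer members. In male Hoxb7Cre pulldowns 2 of 6 rose, Spry4 and Spred1, beside 3.34% of genes, Spry4 by at least 1 on the log2 scale (1.52% of genes), and the median log2 fold change was 0.43. Spry4 was at 22.2, 20.1, 24.8 and 20.8 CPM after iAKI, above the controls of 8.72 to 12.0 CPM without overlap (log2 fold change 1.13, SE 0.27, adjusted p = 0.0145), a rise of 2.19-fold. Spred1 stood at 169.5, 210.0, 191.6 and 170.5 CPM after iAKI and overlapped the control of 173.0 CPM (0.44, SE 0.13, adjusted p = 0.0462). Its call held in 1 of 8 fits that each left out 1 library, so it sits at the threshold.

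Spred2 (0.42, adjusted p = 0.0668) and Spred3 (0.59, adjusted p = 0.144) missed the test although all 4 iAKI libraries lay above all controls, as for 8.20% of genes. Spred2 was at 66.8 to 69.5 CPM and Spred3 at 6.28 to 9.51 CPM after iAKI. Spry1 (0.24) and Spry2 (-0.03) lay within the range of their controls or close to it, at 23.8 to 33.4 CPM and 21.9 to 28.7 CPM. Within series A the log2 fold change of Spry4 was 1.25 and that of Spred2 0.44, both past the test, and that of Spred1 was 0.29, not past it. Without Control replicate 3 the adjusted p of Spry4 was 0.0542.

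In male Atp6b1v1Cre pulldowns the only member past the test after ischemia was Spred2, which fell by 0.48 (SE 0.15, adjusted p = 0.0427), where 4.74% of all genes fell. The iAKI libraries were at 36.3, 38.2 and 58.0 CPM and the controls at 63.1, 68.8, 51.0 and 62.7 CPM, so 1 iAKI library lay within the control range. That library, iAKI replicate 5, is the only one of series B. Spry4 (7.17, 9.80 and 17.1 CPM after iAKI, log2 fold change -0.83, adjusted p = 0.0768), Spry1 (10.6, 10.7 and 28.8 CPM, -0.66, adjusted p = 0.239) and Spred3 (9.00, 5.69 and 13.7 CPM, 0.76, adjusted p = 0.0588) were not past the test, and Spry2 (-0.09) and Spred1 (-0.13) differed least.

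The values within the 2 series were not alike, a difference that was not tested. Within series A, with 2 iAKI and 2 control libraries, Spry1 (-1.07), Spry4 (-1.16) and Spred2 (-0.84) fell. Within series B, with 1 iAKI and 2 control libraries, Spred2 differed by 0.029, Spry4 by -0.33 and Spry1 by -0.08, and Spred3 by 1.17, values in which the lone iAKI library is assumed to vary like the other groups. Without iAKI replicate 5, Spry1 (-1.30) and Spry4 (-1.24) passed as well, while leaving out iAKI replicate 1 or 4, or Control replicate 6, 9 or 11, lost the call of Spred2.

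Marker genes of other cells moved in the same male comparisons. In Hoxb7Cre pulldowns the summed CPM of 6 principal cell markers was 2694 to 3439 in controls, 1005 to 1254 after iAKI and 1110 to 1213 after vAKI, and 5 and 6 of them fell. The 6 endothelial markers summed to 120 to 244 CPM in controls, 246 to 295 after iAKI and 274 to 379 after vAKI, with 0 and 2 markers past the test, both higher. The 6 stroma and pericyte markers summed to 44.2 to 98.3 CPM, 116 to 283 and 108.2 to 147 CPM, and 4 and 2 rose. In Atp6b1v1Cre pulldowns the endothelial sum was 208 to 269 CPM in controls, 139 to 209 after iAKI and 170 to 295 after vAKI (1 marker fell in each), and the stromal sum 138 to 210, 167 to 299 and 146 to 193 CPM. The endothelial sum of total RNA was 278 to 553 CPM, where Spry4 was at 20.1 ± 4.83 CPM (n = 21). Injured tubule markers rose after iAKI, 3 of 4 in each driver, and 0 of 4 after vAKI. No marker of these lists was at 0 in all libraries of a group. Markers of the tagged and neighbouring tubule cells moved as well. The 6 intercalated cell markers summed to 706 to 934 CPM in Atp6b1v1Cre controls, 604 to 1462 after iAKI and 456 to 604 after vAKI, where Foxi1, Atp6v0d2 and Aqp6 fell. In Hoxb7Cre RNA that sum was 564 to 925, 572 to 592 and 400 to 658 CPM, and 2 of 6 fell with iAKI and 4 of 6 with vAKI. The 4 thick ascending limb markers summed to 1709 to 2865 CPM in Hoxb7Cre controls and 874 to 1007 CPM after vAKI, and 3 fell. In Atp6b1v1Cre RNA they summed to 1198 to 2353 CPM in controls and 2147 to 3745 after iAKI, where Umod rose (1.27). After vAKI the sum was 1095 to 1228 CPM and Slc12a1 fell. The 6 proximal tubule markers there summed to 1770 to 3568 CPM in controls and 823 to 1151 after iAKI, where Slc34a1 and Slc5a12 fell. After vAKI, where Slc22a6 fell, it was 3511 and 4188 CPM in series A and 1080 and 1339 in series B. In Hoxb7Cre RNA it was 1733 to 3106, 1343 to 2884 and 2334 to 2560 CPM. Of 5 brown fat markers, 4 fell with iAKI and 3 with vAKI in Hoxb7Cre RNA, among them Ucp1 (log2 fold changes of -4.28 and -2.73) and Elovl3 (-4.56 and -3.98), and 3 fell with vAKI in Atp6b1v1Cre RNA. In such pooled RNA fewer cells of a type and less RNA per cell cannot be told apart, and the part of these shifts in the members' values was not tested.

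Set directly against ischemia, volume depletion gave higher levels of the same 4 members in both drivers. In male Hoxb7Cre RNA, Spry4 was higher by 2.25 (SE 0.28, adjusted p = 3.46e-06), Spry1 by 1.27 (SE 0.33, adjusted p = 0.00429), Spry2 by 1.26 (SE 0.28, adjusted p = 0.00130) and Spred2 by 0.44 (SE 0.14, adjusted p = 0.0216), 4 of 6 members beside 16.4% of genes. In male Atp6b1v1Cre RNA the differences were 2.22 for Spry4 (SE 0.30, adjusted p = 1.82e-05), 1.86 for Spry1 (SE 0.35, adjusted p = 4.07e-04), 0.97 for Spred2 (SE 0.15, adjusted p = 5.48e-05) and 0.91 for Spry2 (SE 0.29, adjusted p = 0.0195), beside 15.0% of genes. Spred3 went the other way in Atp6b1v1Cre RNA, lower by -0.73 after vAKI (SE 0.25, adjusted p = 0.0301), where 14.3% of genes were lower. Spred1 did not pass in either driver (0.02 and 0.18). Leaving out vAKI replicate 4 lost the Hoxb7Cre call of Spred2 (adjusted p = 0.0896), and the Atp6b1v1Cre calls of Spry2 and Spred3 held in 3 and 4 of 7 such fits. All of the Hoxb7Cre libraries compared here are of series A. In Atp6b1v1Cre RNA the 3 Sproutys and Spred2 passed within both series, Spry4 at 2.56 in A and 1.68 in B, while Spred3 was at -0.20 in A, not past the test, and at -1.49 in B, which holds 1 iAKI library.

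In males the response of Spry4 differed between drivers under both stimuli. Its log2 fold change was lower in Atp6b1v1Cre than in Hoxb7Cre RNA by -1.96 after iAKI (SE 0.40, adjusted p = 0.00641) and by -1.99 after vAKI (SE 0.38, adjusted p = 0.00452). These comparisons use the same control libraries for both stimuli, and Spry4 already stood at 9.04 to 28.7 CPM in Atp6b1v1Cre controls against 8.72 to 12.0 CPM in Hoxb7Cre controls. The response of Spred2 to iAKI also differed, by -0.90 (SE 0.20, adjusted p = 0.00937). So 2 of 6 members differed in the response to iAKI (7.79% of genes in either direction) and 1 in the response to vAKI (4.20%). For Spry1 (-0.31, SE 0.45) and Spry2 (-0.40, SE 0.38) the vAKI responses of the drivers were not distinguishable at this spread. Within series A the Spry4 differences were -2.41 and -2.14 and that of Spred2 under iAKI was -1.27, all past the test, as were Spry1 under iAKI (-1.59) and Spry2 under vAKI (-1.10). With both sexes fitted together the Spry4 values were -0.38 and -0.24. In females alone they were 1.36 and 1.10, with Spred2 at 0.11 under iAKI. With the replicate number as a block, in the same males, the Spry4 values were -0.62 and -0.64. No member passed in any of these fits, which called few genes of all 21175. Under iAKI and vAKI these were 585 and 75 with both sexes, 0 and 0 in females, and 0 and 53 with the block. The lack of member calls there therefore decides little.

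Females gave other values for Hoxb7Cre RNA. Spry4 was at 8.87, 39.8, 36.6 and 24 CPM in female controls, at 8.32, 6.21 and 4.65 CPM after iAKI and at 7.76, 35.3, 15.6 and 142.4 CPM after vAKI. The lowest control, replicate 1, is the only female control of series A, to which all the treated Hoxb7Cre libraries belong. Spry1 showed the same split, with 20.9 CPM in that control against 39.7 to 43.4 CPM in the other 3, 11.1 to 19.7 CPM after iAKI and 24.4 to 97.6 CPM after vAKI. Spry2 was at 23.3 CPM against 44.6 to 54.5 CPM, then 12.9 to 14.9 CPM after iAKI and 24.8 to 102.1 CPM after vAKI. In each of the 3 genes a single vAKI library, replicate 5, was highest.

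Tested as a difference between the sexes, the Spry4 response to iAKI in Hoxb7Cre RNA was lower in females by -3.24 (SE 0.85, adjusted p = 0.0157) and that to vAKI by -2.51 (SE 0.80, adjusted p = 0.0295), and the Spred2 response to iAKI by -1.21 (SE 0.27, adjusted p = 0.00807). These are 2 of 6 members for iAKI, where 6.51% of genes were lower in females, and 1 for vAKI, where 7.48% were. With only series A libraries the Spry4 differences were -1.74 and -1.04, no member passed, and 0 and 5 genes passed in all, so at 1 female control the difference between sexes cannot be told apart from that between series. With series as a covariate the Spry4 differences were -3.24 and -2.51. Leaving out 1 library at a time, the iAKI differences of Spry4 and Spred2 were lost without iAKI replicate 3 (adjusted p = 0.0797 and 0.0575). The vAKI difference of Spry4 held in 6 of 15 fits, and without female vAKI replicate 5 it was -3.87. In Atp6b1v1Cre RNA edgeR called a sex difference in response for 0 members and 0% of all genes under either stimulus, and 0 members had an unadjusted p under 0.05, the lowest being 0.295 for Spry2 under vAKI. DESeq2 called 1 gene for iAKI and 44 for vAKI there.

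**Figure D3:**
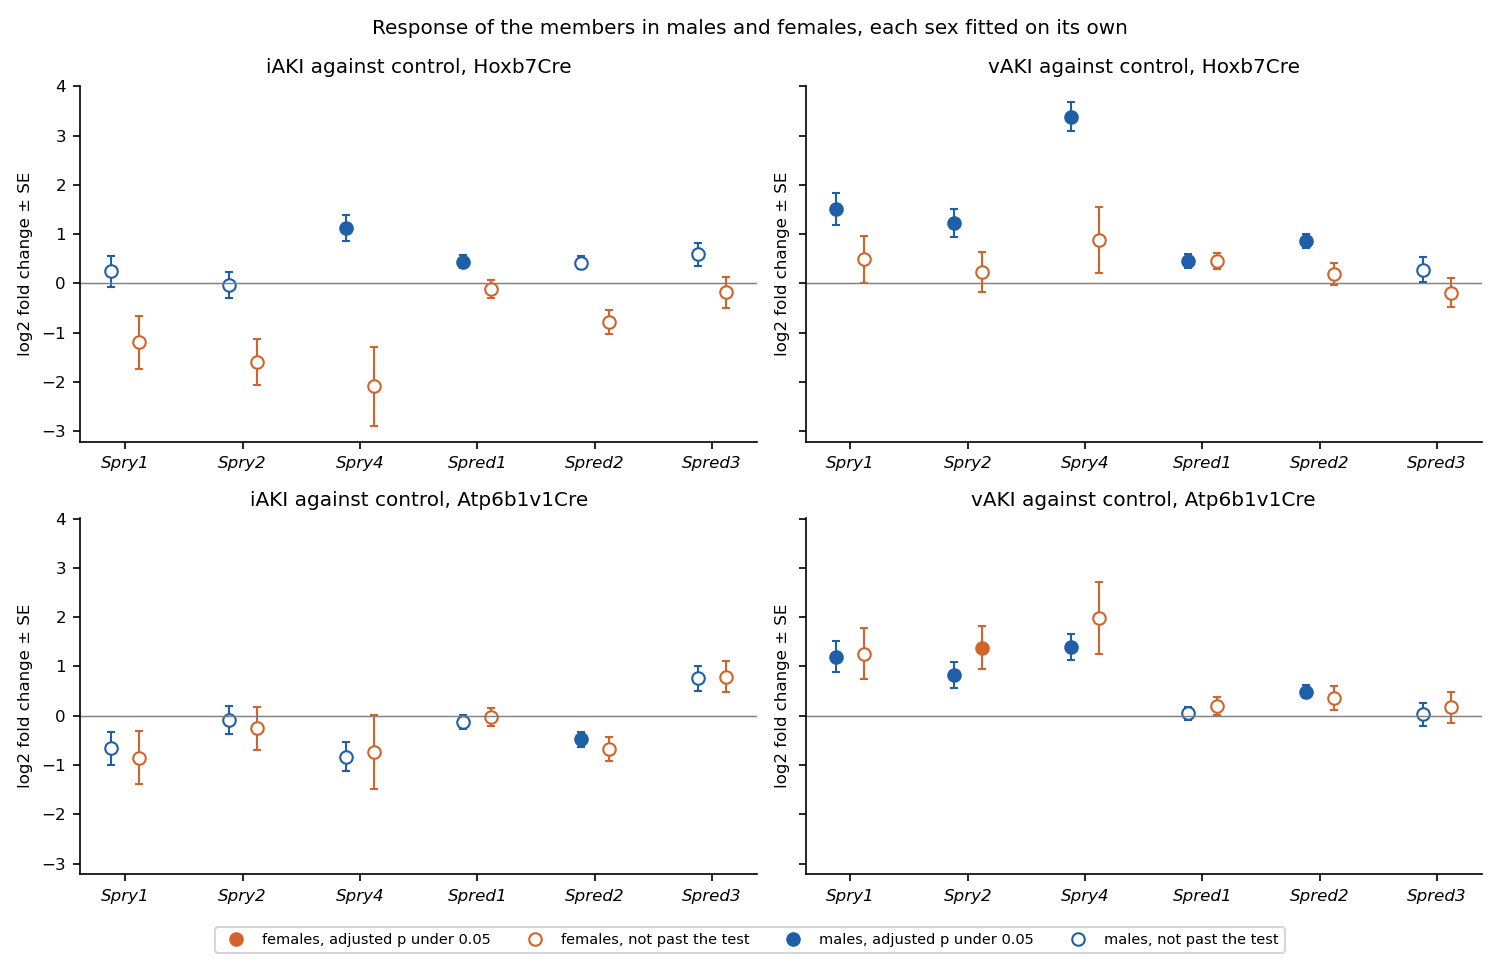
log2 fold change against control (vertical axis) of each member in males (blue) and females (orange), each sex fitted on its own, with 1 panel per stimulus and driver. Bars are SEs and filled points passed the test. The sexes lie far apart for Spry4 in Hoxb7Cre RNA (1.13 and -2.09 after iAKI, 3.38 and 0.88 after vAKI) and close together in Atp6b1v1Cre RNA.

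Fitted alone, the females had no member past the test against control in Hoxb7Cre RNA, neither after iAKI (Spry4 -2.09, adjusted p = 0.12, Spry2 -1.59, adjusted p = 0.0590, Spred2 -0.78, adjusted p = 0.0741, beside 3.14% of genes called) nor after vAKI (Spry4 0.88, adjusted p = 0.812, beside 0.109% called). At an unadjusted p under 0.05 the members were Spry1, Spry2, Spry4 and Spred2 for iAKI, and Spred1 for vAKI. In female Atp6b1v1Cre RNA, Spry2 rose with vAKI by 1.38 (SE 0.44, adjusted p = 0.0337), where 9.20% of genes rose, and Spry4 (1.98, adjusted p = 0.0632) and Spry1 (1.26, adjusted p = 0.0947) missed the threshold. Spry4 was at 26.5, 7.78, 22.5 and 9.91 CPM in those controls, at 5.14, 4.72 and 21.0 CPM after iAKI and at 88.6, 75.7 and 32.1 CPM after vAKI, so each vAKI library exceeded each control, as in males (15.0% of genes). The 21.0 CPM iAKI library is again the series B one.

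Between the 2 stimuli, which needs no control library, the female values had the signs of the male ones for the Sproutys and Spred2. Spry4 was higher after vAKI than iAKI by 2.97 in female Hoxb7Cre RNA (SE 0.82, adjusted p = 0.0476) and by 2.71 in female Atp6b1v1Cre RNA (SE 0.83, adjusted p = 0.0158). Spry2 was higher by 1.82 and 1.64 and Spred2 by 0.96 and 1.04, all past the test, and Spry1 by 1.68 (adjusted p = 0.0843) and 2.11 (adjusted p = 0.00851). That makes 3 and 4 of 6 members, beside 2.47% and 15.8% of genes that were higher. For Spry4 in female Hoxb7Cre RNA the groups overlapped, since the lowest vAKI library lay within the iAKI range. Its vAKI replicate 5 stood far above the others, and this comparison was not repeated without that library.

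The rest of the pathway was read from 8 lists of genes, ordered from ligand to target, in males. The shares of all genes to set beside the counts are 17.9% that rose and 17.6% that fell with vAKI in Hoxb7Cre RNA, 8.11% and 6.47% in Atp6b1v1Cre RNA, and with iAKI 3.34% and 2.79% in Hoxb7Cre and 3.77% and 4.74% in Atp6b1v1Cre RNA. Of 18 growth factor ligands, 7 rose and 4 fell with vAKI in Hoxb7Cre RNA. The risers were led by the EGF receptor ligands Hbegf (log2 fold change 3.22) and Areg (2.95), by Gdnf (2.89), the ligand that Spry1 counters in development, and by Ereg (1.82). Btc (-2.32), Fgf7 (-1.71), Egf (-1.25) and Tgfa (-1.14) fell. In Atp6b1v1Cre RNA 5 ligands rose with vAKI, Areg (2.90), Hbegf (2.00), Ereg (1.76), Igf1 (1.22) and Fgf9 (0.83), and none fell. With iAKI the only ligand past the test was Egf, which fell by 1.56 and 1.46 on the log2 scale in the 2 drivers.

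Of 17 receptors, 4 rose with vAKI in Hoxb7Cre RNA, Ret (1.55), Pdgfra (1.23), Flt1 (1.07) and Pdgfrb (0.93), and 4 fell, Erbb2 (-1.11), Kit (-1.05), Erbb3 (-0.98) and Met (-0.87). These counts lie near the shares of all genes in that comparison. Pdgfra, Pdgfrb and Flt1 also belong to the stromal and endothelial marker lists given before. With iAKI, 2 rose and 1 fell in Hoxb7Cre RNA, and 7 fell in Atp6b1v1Cre RNA, among them Gfra1 (-1.86), the Gdnf co-receptor, Erbb3 (-1.25) and Egfr (-1.07). With vAKI in Atp6b1v1Cre RNA 2 fell and none rose.

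Among the genes between receptor and target, the scaffold Ksr1 (1.44) and the small GTPase Rras (1.17) rose with vAKI in Hoxb7Cre RNA. Of 10 adaptors, 3 rose in that comparison and 4 fell with iAKI in Atp6b1v1Cre RNA. Among 10 other brakes on Ras and its receptors, Errfi1, an inhibitor of the EGF receptor, rose by 3.12 and 2.04 with vAKI in the 2 drivers and fell by 1.26 on the log2 scale with iAKI in Atp6b1v1Cre RNA. Il17rd, also called Sef, rose in Hoxb7Cre RNA with both iAKI (0.90) and vAKI (1.09). No other brake of this list rose with vAKI in either driver. Nf1, which encodes neurofibromin, fell with vAKI in Hoxb7Cre RNA (-0.47), and Lztr1 fell with vAKI in Atp6b1v1Cre RNA (-0.51). With iAKI, Rasa2 rose in Hoxb7Cre RNA (0.62), while Rasa2 (-0.60) and Rasal2 (-0.55) fell in Atp6b1v1Cre RNA. Of 13 proteins known to bind or modify Sproutys or Spreds, 4 rose with vAKI in Hoxb7Cre RNA, the ubiquitin ligases Siah2 (1.58) and Siah1a (1.37) and the kinases Mknk2 (1.13) and Dyrk1a (0.94), and 3 fell, Cav1 (-1.36), Csk (-0.78) and Nedd4 (-0.73).

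The dual-specificity phosphatases, a second layer of brakes on ERK and related kinases, moved with the Sproutys. With vAKI 6 of 7 rose in Hoxb7Cre RNA, Dusp1 (3.34), Dusp5 (2.75), Dusp4 (2.51), Dusp2 (1.77), Dusp6 (1.55) and Dusp7 (0.72), and 4 of 7 in Atp6b1v1Cre RNA, Dusp1 (2.10), Dusp5 (1.75), Dusp2 (1.07) and Dusp6 (0.86). With iAKI, Dusp4 rose by 1.13 in Hoxb7Cre RNA and Dusp1 fell by 1.19 on the log2 scale in Atp6b1v1Cre RNA. Of 20 transcripts known to rise with ERK activity, 18 rose and 1 fell with vAKI in Hoxb7Cre RNA, with a median log2 fold change of 2.31, the largest being Egr3 (4.03), Fos (3.71), Ier2 (3.71), Junb (3.61), Jun (3.47) and Epha2 (3.08). Ccnd1, which encodes cyclin D1, was the exception at -1.33. In Atp6b1v1Cre RNA 11 rose and 1 fell, with a median of 1.51.

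**Figure D4:**
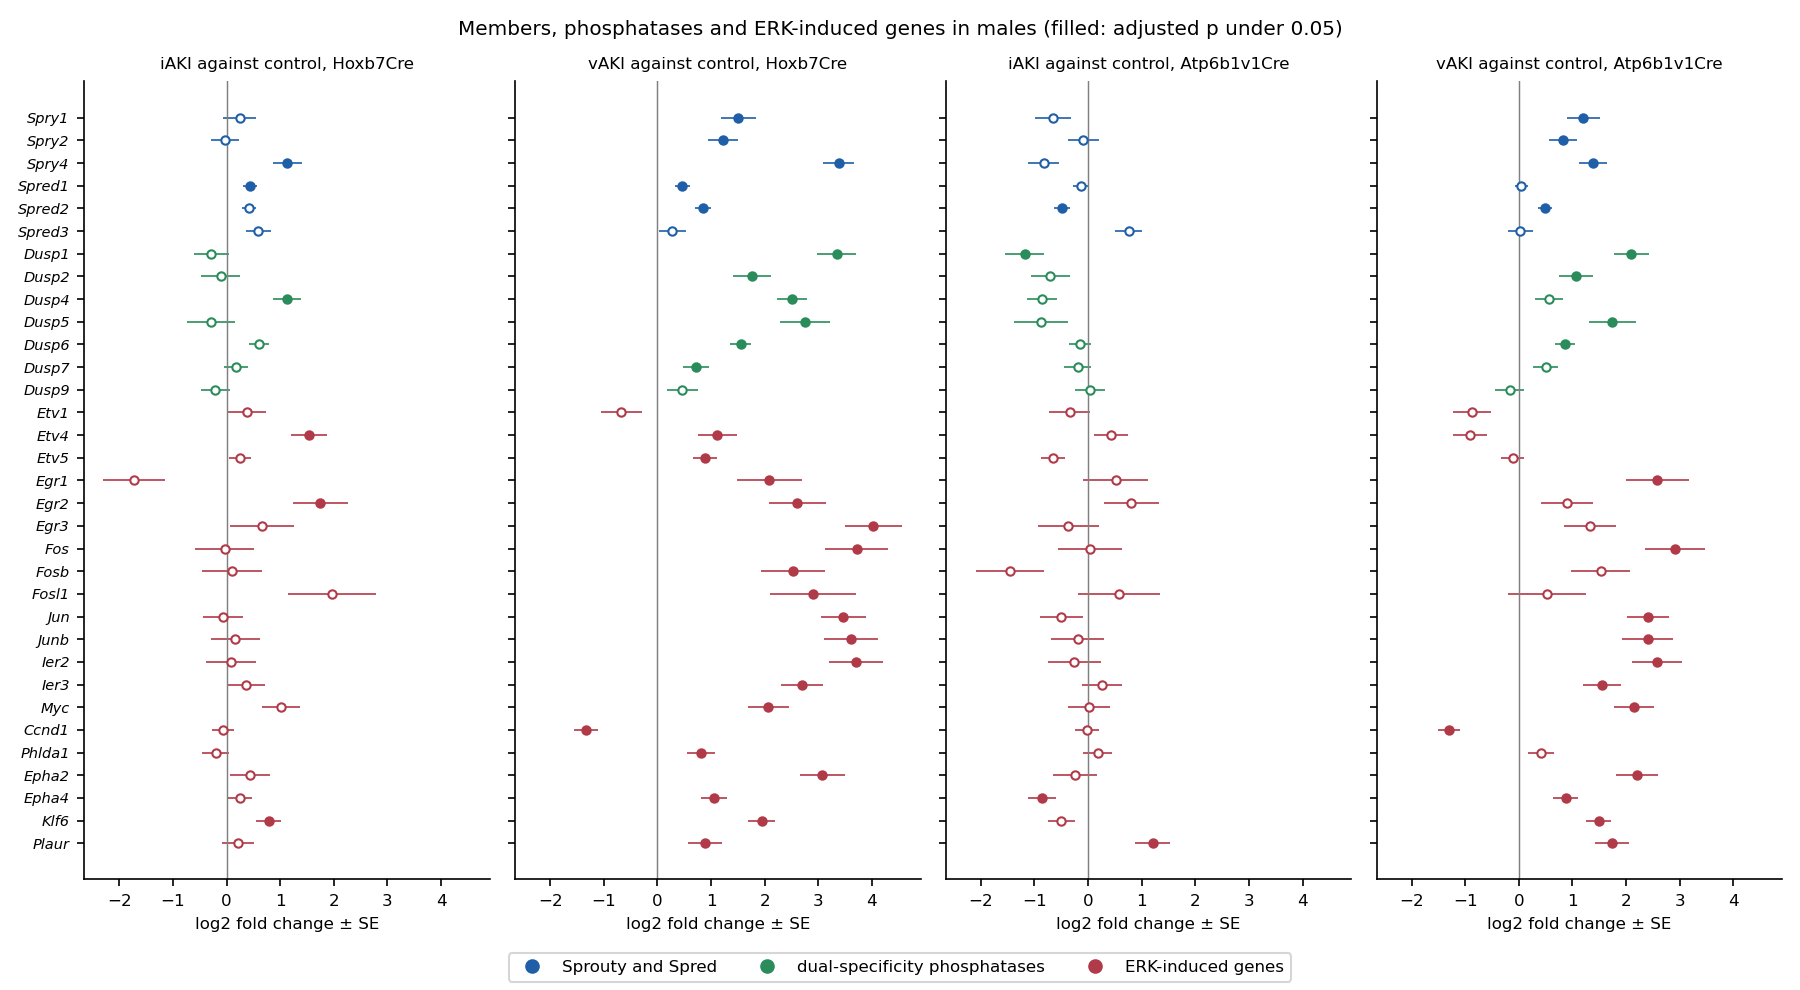
log2 fold change against control (horizontal axis, bars SE) in males of the 6 members, 7 dual-specificity phosphatases and 20 ERK-induced genes, 1 panel per stimulus and driver. Filled points passed the test. With vAKI in Hoxb7Cre RNA most points lie right of 0, with Ccnd1 at -1.33, and with iAKI most points are open.

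With iAKI only Egr2 (1.75), Etv4 (1.54) and Klf6 (0.79) of the ERK-induced list rose in Hoxb7Cre RNA, with a median of 0.25, and in Atp6b1v1Cre RNA Plaur rose (1.20) and Epha4 fell (-0.86). Etv4, an ETS factor that Ret signaling induces in the ureteric bud, and Spry4 were thus among the genes that rose with both stimuli in Hoxb7Cre RNA. The female Hoxb7Cre libraries differed from males in these lists as in Spry4: the responses of 8 ERK-induced genes and 3 phosphatases were lower for iAKI, and of 7 and 3 for vAKI. Among all genes 6.51% and 7.48% were lower. These differences share the series imbalance of the female controls, and with series A libraries alone 0 and 5 genes passed in all. In females fitted alone 0 of the 20 ERK-induced genes rose with vAKI in Hoxb7Cre RNA. That fit called 0.109% of all genes in either direction, so the count of 0 sets no contrast with males.

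By group means centred on each gene's own average over the 6 male groups (22 libraries, 15126 genes compared), the pattern of Spry1 was nearest to those of Zbtb10, Snord53 and Maml1, at root mean square log2 differences of 0.0631, 0.0936 and 0.0995. Slc7a6os, Nrbf2 and Necab3 were nearest to Spry2, at 0.0585, 0.0736 and 0.0760. Spry4 had less close neighbours, Tulp1, Sox7 and Ip6k3, at 0.113, 0.123 and 0.126.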

How the data were processed

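The authors deposited raw read counts per gene for all 69 libraries (per the labels, Illumina TruSeq libraries of pulled-down or total kidney RNA). By the methods and the submitters' processing notes, reads were called with CASAVA 1.8.2, trimmed with Trimmomatic 0.36, aligned to mm10 with STAR 2.5.3a and counted with HTSeq 0.6.1p2, both at default settings. The gene annotation is not given in the sources used here. The deposited counts were used as they are, and library totals ran from 12618062 to 30305464, so that a value's precision rests on counts of at least 34 for every member.

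Samples were grouped by their labels. After a filter of 2 counts summed over all libraries, 21175 genes were tested with edgeR 4.0.16 (quasi-likelihood test, TMM, R 4.3.3), with Benjamini-Hochberg adjustment over all of them, in 3 fits: 22 male pulldowns in 6 groups, 42 control libraries with sex as a covariate, and 43 pulldowns of both sexes in 12 groups. A gene passed at an adjusted p under 0.05, and a stricter rule also asked for a log2 fold change of at least 1. Each library is 1 kidney of 1 mouse, and control pulldowns and total RNA may come from the same mice. They match in number by driver, sex, age and series. The comparisons of pulldown with total RNA and the test of sex at rest treated them as independent, and no fit paired them by mouse. Length in kb is the union of exons in GENCODE vM21. The script was tested on simulated data. Alternatives were DESeq2 1.42.0, its size factors, other filters, other sample sets, a series covariate, single series, a replicate block and leaving out each library. Same-numbered libraries did not deviate together (mean correlation -0.0802 over 6 Hoxb7Cre and -0.113 over 2 Atp6b1v1Cre pairs), so the numbers were not taken to pair them. Members, lists and tests were chosen with earlier results of these data known. The named genes were all members, list genes with the largest changes of at least 1 or at the pathway's centre, and the 3 genes nearest in pattern to each member with such a change. Genes expressed from the Y chromosome and Xist matched the sex label in all 69 libraries. Some genes of one pathway list are not reported here.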

Additional observations from a re-analysis of the deposited data

Results flagged for a closer look

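Among 54 groups of 4 to 10 libraries, 4 held a library far from the others, and chance flags about 1 in 20 groups. Spred1 was at 173 CPM in male Hoxb7Cre Control replicate 2, above the other 3 controls. Spred2 was at 76.7 CPM in female Atp6b1v1Cre Control replicate 7, above the other 3. Spry1 was at 20.9 CPM in female Hoxb7Cre Control replicate 1, below the other 3, and at 33.4 CPM in male Hoxb7Cre iAKI replicate 5, above the other 3.

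In 6 tests the response of a member differed between drivers or sexes. Between drivers, Atp6b1v1Cre minus Hoxb7Cre in males, the log2 differences were -1.96 for Spry4 and -0.90 for Spred2 under iAKI and -1.99 for Spry4 under vAKI. Between sexes, females minus males in Hoxb7Cre RNA, they were -3.24 for Spry4 and -1.21 for Spred2 under iAKI and -2.51 for Spry4 under vAKI. The sex differences share the series imbalance of the female controls described above, and its part in them was not tested beyond the series A values given there.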

How the results depend on the processing

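Counts of members past the test changed by over 1.5 times as follows, and the causes were not tested except where fewer samples or the call rule show them. Also asking for a log2 fold change of at least 1 left 1 member of 2 for iAKI and 3 of 5 for vAKI in Hoxb7Cre RNA, 0 of 1 and 2 of 4 in Atp6b1v1Cre RNA, 2 of 5 for vAKI against iAKI in Atp6b1v1Cre RNA, 1 of 2 for the driver difference under iAKI, 1 of 4 for each control pulldown against total RNA and 0 of 1 for sex at rest. For iAKI in Hoxb7Cre RNA, 1 member passed with DESeq2's size factors, with no filter or with 25 males, and 0 with both sexes or females only. For iAKI in Atp6b1v1Cre RNA, 3 passed with DESeq2, a series covariate or series A alone, 2 with edgeR's own filter or both sexes, and 0 with females only, only the 2 groups compared, or the replicate block. Females alone gave 0 for vAKI in Hoxb7Cre RNA and 1 in Atp6b1v1Cre RNA, where series A alone gave 2. The driver differences fell to 0 for both stimuli with both sexes, with females only and with the replicate block, fits that also called fewer genes in all. That for vAKI rose to 2 with a series covariate or series A alone. Between control pulldowns 1 passed in males only and 2 with the replicate block, sex at rest gave 2 in mice of 5.5 months only, and the sex difference in response, 3 in all, gave 0 in series A, an alternative chosen after seeing the data. The pairing of libraries by the replicate block also took vAKI in Atp6b1v1Cre RNA from 4 to 3 members, without Spred2, and for iAKI in Hoxb7Cre RNA it kept 2, with Spred3 past the test in place of Spred1.

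Signs turned for Spry4 after iAKI in Hoxb7Cre RNA (-0.40 with both sexes and -2.09 in females), for Spred1 there (-0.11 in females), for the driver differences in females (Spry4 1.36 and Spred2 0.11 under iAKI, Spry4 1.10 under vAKI) and for Spred2 after iAKI in Atp6b1v1Cre RNA within series B (0.029, chosen after seeing the data). Another 56 of 972 member values turned sign past the test in neither fit.

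Leaving out 1 library at a time gave 0 to 2 members for iAKI and 4 to 5 for vAKI in Hoxb7Cre RNA, 0 to 3 and 2 to 4 in Atp6b1v1Cre RNA, 3 to 4 and 3 to 5 for vAKI against iAKI, 2 to 3 and 1 to 1 for the driver differences, 4 to 4 for each pulldown against total RNA, 0 to 1 between pulldowns, 1 to 3 for sex at rest and 1 to 5 for the sex difference in response. No member past the test turned sign in these fits. The small groups, of 3 or 4 kidneys, limit the precision, and Spred3 had the fewest counts.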

Other observations

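The 3-month Atp6b1v1Cre controls, which entered the injury comparisons only in the alternative with 25 males, held the Sproutys at uneven levels. Replicate 15 was at 48.9 CPM for Spry4, 56.0 CPM for Spry1 and 47.5 CPM for Spry2, while replicates 14 and 16 were at 13.3 and 9.80 CPM, 23.8 and 24.5 CPM, and 27.3 and 24.7 CPM. The Spreds were closer together in the same 3 libraries, with Spred1 at 153 to 176 CPM and Spred3 at 4.25 to 4.75 CPM. In the 2 female Hoxb7Cre controls of that age Spry4 was at 14.0 and 7.58 CPM, Spry1 at 30.5 and 25.7 CPM and Spry2 at 34.6 and 30.2 CPM.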
